A study of Mus musculus with 2 samples.

Results

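The cytosolic nucleic acid sensing genes are 8 listed genes whose products detect RNA or DNA in the cell body, pass the signal on or limit it: Ifih1, Dhx58, Mavs, Zbp1, Aim2, Trex1, Tbk1 and Ikbke. The list was fixed by gene symbol, with earlier results of these data known, and each gene had exactly 1 probe set with its symbol alone, so 8 of the 19938 named genes on the arrays are described here. The study ran 2 Affymetrix Mouse Gene 1.0 ST arrays, 1 per genotype, on RNA of plasmacytoid dendritic cells (pDCs), which are known for their output of type I interferon. The first group was Runx2-/- and the second wild type. Mice without Runx2, a DNA-binding factor needed for bone formation, die at birth. Both groups were bone marrow cells of chimeric mice rebuilt with fetal liver cells of that genotype and sampled 2 months later. The pDCs were sorted as CD11b-negative cells positive for BST2 and B220, and labelling started from 250 ng of total RNA. The labels give no strain, age or sex, no number of mice behind a sample and no share of host cells left in the chimeras, and they describe no stimulation of the cells.

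Cells recognise foreign or misplaced nucleic acid outside the endosome by a small set of receptors. MDA5 (Ifih1), RIG-I (Ddx58) and LGP2 (Dhx58) bind RNA and act through the mitochondrial adaptor MAVS, while cGAS and STING, AIM2 and ZBP1 respond to DNA or to Z-form nucleic acid. The kinases TBK1 and IKK-epsilon phosphorylate the transcription factors IRF3 and IRF7, which switch on interferon genes, and several of the sensors are themselves induced by interferon. pDCs are known mainly for a different route, the endosomal receptors TLR7 and TLR9, so these arrays show how the cytosolic set is transcribed in a cell that relies on endosomal sensing.

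Values are linear RMA intensities as deposited and log2 differences are Runx2-deficient minus wild-type. With 1 array per genotype there is no standard error, no p-value and no check by a replicate, and in sorted bulk cells fewer cells of a type and less RNA per cell cannot be told apart. A gene was counted as higher or lower at 1.5-fold, a log2 difference of 0.585, and was called past the brightness level at or above the median log2 intensity of all named genes, 7.54 on the Runx2-deficient and 7.61 on the wild-type array, on at least 1 of them. All 8 members were past that level on both arrays. Intensities of different probe sets are not on 1 scale, so levels are set side by side only within a gene.

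Marker genes were checked first. The 11 measured pDC markers were all past the brightness level and 0 of them were 1.5-fold apart. Siglech, Tcf4 and Irf8 differed by 0.073, -0.044 and 0.033, while Pacsin1 (-0.56), Ly6d (-0.46), Tlr9 (-0.32) and the sort marker Bst2 (-0.31) were further below 0 and Tlr7 (0.24) was the highest. Markers of granulocytes and of some other blood cells were lower in Runx2-deficient pDCs. Of 12 granulocyte markers, 12 were lower past 1.5-fold, with summed intensities of 2453 in Runx2-deficient and 18315 in wild-type pDCs. Erythroid markers had 5 of 7 lower, with sums of 884 in Runx2-deficient and 2468 in wild-type pDCs, and platelet markers 3 of 6 lower, with 2136 in Runx2-deficient and 7070 in wild-type pDCs. Monocyte and macrophage markers had 3 of 8 lower and 1 higher, with sums of 1870 in Runx2-deficient and 4119 in wild-type pDCs, and conventional dendritic cell markers 2 of 10 lower and 1 higher, with 18296 in Runx2-deficient and 22334 in wild-type pDCs. T cell markers had 0 of 7 past 1.5-fold, NK cell markers 1 of 8 higher, and B cell markers 1 of 8 higher and 1 lower. The table holds no detection call and no value of 0, and the part of other cells in the differences below was not tested. Runx2 itself was not analysed here, so the genotype was not checked on the targeted gene.

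Zbp1 was the member that differed past 1.5-fold, and the other 7 lay within 1.18-fold of equality. Of the 8, 7 were above 0 and 1 was below, 1 was at least 1.5-fold higher and 0 were at least 1.5-fold lower. Over the 10337 named genes past the brightness level, the share at least 1.5-fold higher was 3.02%, the share at least 1.5-fold lower 3.86% and the share above 0 47.8%. The median difference of the members was 0.21, against -0.014 over the named genes past the brightness level. When each array was centred on its own median, all 8 members were above 0, so the sign of the lowest one, Mavs (0.042), depends on the scaling. The median difference of all named genes moved with it, from -0.033 as deposited to 0.043 after centring.

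**Figure D1:**
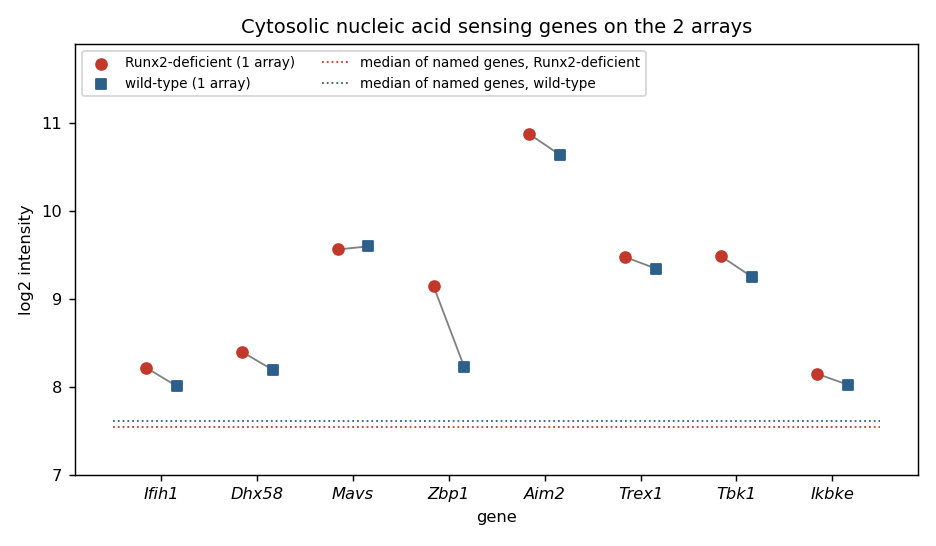
Log2 intensity (y axis) of the 8 members (x axis), with the Runx2-deficient array as red circles and the wild-type array as blue squares, 1 array each and therefore no error bars; dotted lines mark the median of all named genes on each array. Zbp1 is the pair with a clear gap (9.15 for Runx2-deficient and 8.23 for wild-type), and all points lie above both dotted lines.

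The RNA sensors Ifih1 and Dhx58 were slightly higher in Runx2-deficient pDCs. Ifih1, which encodes MDA5, the receptor for long double-stranded RNA, was at 298 intensity units in Runx2-deficient pDCs and 257 in wild-type pDCs, a log2 difference of 0.21. Dhx58, which encodes LGP2, a helicase without signalling domains of its own that modulates MDA5 and RIG-I, was at 338 units in Runx2-deficient and 293 units in wild-type pDCs, also a log2 difference of 0.21. Of the named genes past the brightness level, 19.6% had a difference at least as high as that of Ifih1 and 20.0% one at least as high as that of Dhx58. Mavs, the adaptor that both MDA5 and RIG-I engage on mitochondria, was at 757 units on the Runx2-deficient and 775 units on the wild-type array, a log2 difference of -0.034.

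RIG-I itself is not one of the 8 members and lay closer to the threshold than either RNA sensor among them. Ddx58 was at 320 units on the Runx2-deficient and 218 units on the wild-type array, 1.47-fold higher (log2 0.56). It passed 1.5-fold when each array was centred on its median (0.63) and when the trend with intensity was removed (0.61). The promoter table holds both Ddx58 and Ifih1, and both contain the letters of the interferon-stimulated response element (ISRE), the site that interferon-activated STAT and IRF factors read. They are shown because these are the 2 RIG-I-like receptors with a RefSeq promoter entry. Of the 10 list genes outside the members that were at least 1.5-fold higher, 7 have a promoter entry. The letters were found in 3 of these, Cxcl10, Ifi205 and Ifit1, which are set beside the receptors, and not in the other 4, Ifit2, Nlrc4, Casp4 and Xrcc6. All sequences are from RefSeq, build GRCm38.p6, read 5′ to 3′ on the gene's strand, and capitals mark the ISRE letters, GAAA, any 2 bases and GAAA, in either orientation.
Ifih1: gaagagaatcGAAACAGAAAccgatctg
Ddx58: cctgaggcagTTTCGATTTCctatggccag
Cxcl10: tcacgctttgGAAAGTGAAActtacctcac
Ifi205: ccaggccaggGAAATTGAAAgctatgaaca
Ifit1: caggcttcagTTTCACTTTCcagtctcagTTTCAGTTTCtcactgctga
The Ifih1 stretch is chr2:62646206-62646233 and the Ddx58 stretch chr4:40239804-40239833, both on the minus strand, and their ISRE letters begin 33 and 3 bases into the transcript, counting the start as base 1. The Cxcl10 stretch is chr5:92349083-92349112 and the Ifi205 stretch chr1:174031870-174031899, both on the minus strand, and the Ifit1 stretch is chr19:34640775-34640823 on the plus strand. In these 3 genes the letters shown lie before the start. Ifit1 holds them at 2 places, both shown, and Ifi205 also at 2, with the second at bases 24 to 33 of the transcript and not shown.

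Letters alone do not say that a factor is bound. Of all 32851 promoter entries, which run from 250 bases before to 50 after a start, 3.44% hold the ISRE letters on either strand. Of the 6 members with an entry (Ifih1, Mavs, Aim2, Trex1, Tbk1 and Ikbke), 1 held them. Across the named genes past the brightness level that have an entry, 7.19% of the 306 with ISRE letters reached 1.5-fold higher in Runx2-deficient pDCs, against 2.68% of the 8016 without. At least 1.5-fold lower were 1.63% of the genes with the letters and 3.69% of those without. The groups lay closer in the middle, with a median difference of 0.034 with the letters and -0.016 without. Above 0 were 53.3% of the genes with the letters and 47.5% of those without. Of the 22 higher genes with the letters, 6 lay below the brightness level on the wild-type array and so entered only through the array where they were high, Ifit1, Cxcl10 and Ifi205 among them. Over genes past the level on both arrays, the higher share was 5.63% of 284 with the letters and 2.19% of 7477 without. Ifih1, at 0.21, was among the genes with the letters that did not reach the threshold, and so was Ddx58. Genes are not replicates, and this split carries no test.

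**Figure D2:**
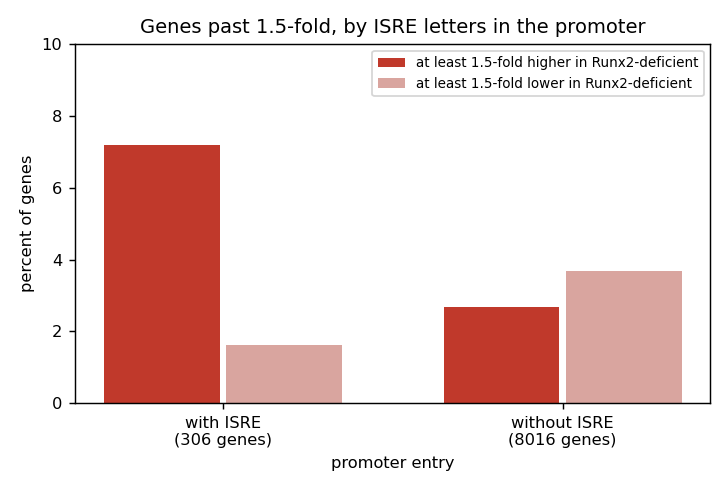
Percent of named genes past the brightness level (y axis) that were at least 1.5-fold higher (dark bars) or at least 1.5-fold lower (pale bars) on the Runx2-deficient array, for genes whose promoter entry has or lacks the ISRE letters (x axis). The higher share is 7.19% with the letters and 2.68% without; 1 array per genotype gives no error bars.

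Zbp1 had the largest difference of the 8 members. It encodes ZBP1, a sensor of Z-form RNA and DNA that is induced by interferon and can start necroptosis through the kinase RIPK3. Its intensity was 567 units in Runx2-deficient pDCs and 300 units in wild-type pDCs, a 1.89-fold difference (log2 0.92). On the same arrays the granulocyte markers had a median difference of -2.15 and the pDC markers one of -0.044. The next member, Aim2, was 0.68 lower on the scale of log2 differences. Of the 10337 named genes past the brightness level, 101, or 0.977%, had a difference at least as high as that of Zbp1, itself included. The fold did not reach 2, a size that 0.793% of these genes passed as higher and 1.17% as lower. The difference lay between 0.82 and 0.99 over the 6 settings tried, lowest when 50 intensity units were added to both arrays before taking log2. Those 6 include the main setting and the averaging of probe sets, which could not change Zbp1 with its 1 probe set.

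The measured partners of ZBP1 in the cell death route lay within 1.5-fold. Ripk3, the kinase that ZBP1 recruits, was at 302 units on the Runx2-deficient and 293 units on the wild-type array, a log2 difference of 0.044. Mlkl, the membrane-permeabilising effector downstream of RIPK3, differed by -0.42 and lay below the brightness level on both arrays. Casp8 and Fadd, which hold necroptosis in check and drive apoptosis instead, differed by -0.080 and 0.079. Of 7 measured genes of the route, 1 was at least 1.5-fold higher, Zbp1 itself, and 0 were lower, with a median of 0.079. Past the brightness level were 6 of the 7, and over all named genes past it 3.02% were higher and 3.86% lower. Ripk1 was not analysed here.

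**Figure D3:**
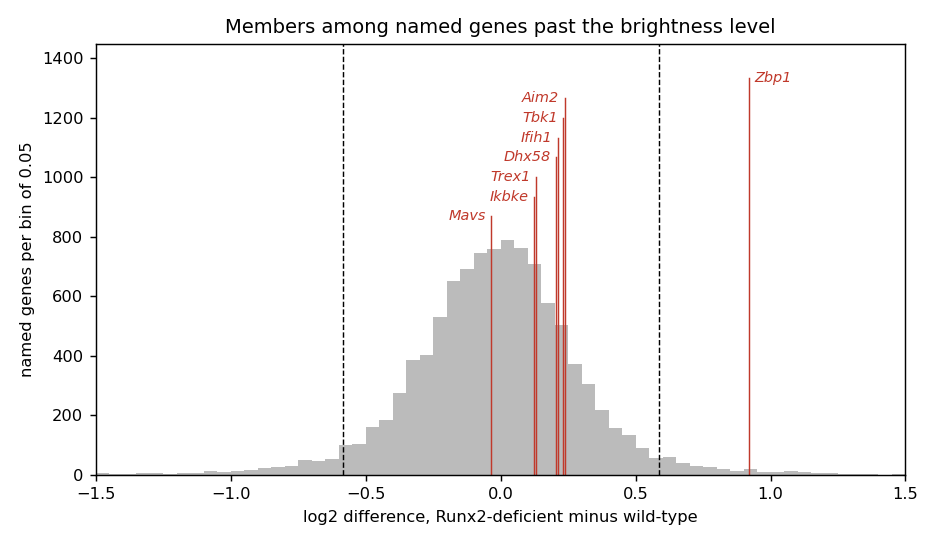
Number of named genes past the brightness level per bin of 0.05 (y axis) against the log2 difference, Runx2-deficient minus wild-type (x axis), with the 8 members as red lines whose heights carry no value and dashed lines at 1.5-fold. Zbp1 stands at 0.92, while 6 members lie between 0.12 and 0.24 and Mavs at -0.034; 26 genes above 1.5 and 62 below -1.5 are outside the axis.

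Aim2 was slightly higher and its inflammasome partners went in both directions. AIM2 binds double-stranded DNA in the cytosol and assembles with the adaptor ASC (Pycard) and caspase-1 (Casp1). Aim2 was at 1878 units in Runx2-deficient pDCs and 1594 in wild-type pDCs, 1.18-fold higher (log2 0.24), a difference that 17.1% of the named genes past the brightness level equalled or exceeded. Pycard was nearly equal, at 1432 units on the Runx2-deficient and 1413 units on the wild-type array, while Casp1 was at 265 units in Runx2-deficient and 360 units in wild-type pDCs, a log2 difference of -0.44.

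Within the AIM2 inflammasome list, 2 of 12 measured genes passed 1.5-fold as higher and 0 as lower, with a median of 0.15. Both were among its 9 genes past the brightness level, at which 3.02% of all named genes were higher and 3.86% lower. Nlrc4, which encodes the core of a flagellin-sensing inflammasome, was 1.94-fold higher, at 193 units on the Runx2-deficient and 99.4 units on the wild-type array. Casp4, the caspase that senses cytosolic lipopolysaccharide, was 1.89-fold higher, at 249 units on the Runx2-deficient and 132 units on the wild-type array. In both genes the wild-type level lay below the brightness level of that array, so the folds rest on a dim denominator. Neither gene is a sensor of nucleic acid.

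The stretch before the start of Aim2 holds at 2 places the letters GAGGAA, which can be read by PU.1, the Ets factor of myeloid and dendritic cells. It is shown with Ikbke, which holds them at 1 place, and with Mavs and Tbk1, which hold none of the 4 motifs searched in their whole entries. Capitals mark GAGGAA.
Aim2: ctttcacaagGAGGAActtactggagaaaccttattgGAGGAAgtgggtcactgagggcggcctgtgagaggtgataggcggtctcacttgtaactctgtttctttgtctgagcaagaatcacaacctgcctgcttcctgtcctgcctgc
Ikbke: ctttaagagcgaGAGGAAgggagggaaaga
Mavs: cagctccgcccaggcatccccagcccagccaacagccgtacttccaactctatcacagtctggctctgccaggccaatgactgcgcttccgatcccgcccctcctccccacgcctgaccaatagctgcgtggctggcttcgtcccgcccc
Tbk1: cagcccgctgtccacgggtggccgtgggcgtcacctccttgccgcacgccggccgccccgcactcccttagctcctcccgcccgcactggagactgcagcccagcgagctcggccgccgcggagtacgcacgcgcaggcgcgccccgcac
The stretches are chr1:173420454-173420603 (Aim2, plus strand), chr1:131279608-131279637 (Ikbke, minus strand), chr2:131233913-131234062 (Mavs, plus strand) and chr10:121586795-121586944 (Tbk1, minus strand). The GAGGAA letters were found on either strand in at least 1 entry of 4 of the 6 members, and 28.3% of all promoter entries hold them. For each motif searched, members are counted by gene over all their entries, while the share over all promoters is by entry. Trex1 has an entry with GAGGAA and another without it, so these shares are not on the same base. The letters TGTGGT, the core read by Runx factors, were in 0 of the 6 and in 16.8% of all entries, and TTCNNNGAA, the site of STAT dimers, was in 0 of the 6 and in 8.30% of all. No match says only that the letters are missing from this window.

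Trex1 and the other measured enzymes that limit sensing lay within 1.5-fold, as did 93.1% of all named genes past the brightness level. TREX1 is an exonuclease that degrades cytosolic DNA before cGAS can detect it, and its loss causes interferon-driven disease. Trex1 was at 712 units in Runx2-deficient pDCs and 651 in wild-type pDCs, a log2 difference of 0.13. Of 17 measured nucleases and modifiers, 0 were at least 1.5-fold higher and 0 lower, and the median was -0.039. When each array was centred on its median it was 0.037, beside 0.043 for all named genes. The differences ran from -0.36 for Pld3, an endolysosomal exonuclease, to 0.34 for Dnase1l3, a secreted nuclease that digests DNA in vesicles and chromatin.

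The DNA sensing genes around Trex1 and Zbp1 included 3 past 1.5-fold as higher and 0 as lower. Sting1, the adaptor that receives the cyclic dinucleotide made by cGAS, was at 5948 units on the Runx2-deficient and 5123 units on the wild-type array, a log2 difference of 0.22. Cgas was below the brightness level on both arrays, at 95.2 units in Runx2-deficient and 76.6 units in wild-type pDCs, so its difference of 0.31 is that of a dim probe set. The list had 30 measured genes, 26 of them past the brightness level, and a median of 0.044. The 3 higher ones, all past that level, were Zbp1, Xrcc6 and Ifi205. Over all named genes past the brightness level, 3.02% were higher and 3.86% lower. Xrcc6, which encodes Ku70, a DNA end-binding protein of double-strand break repair, was at 823 units in Runx2-deficient pDCs and 478 in wild-type pDCs, while its partner gene Xrcc5 was dim on both arrays and differed by 0.014. Ifi205, a member of the same interferon-inducible family as Aim2, was at 332 units in Runx2-deficient and 194 units in wild-type pDCs. Its wild-type value lay just below the brightness level of that array, so it was past the level only through the Runx2-deficient array. Of the same family, Ifi203 (-0.036) and Ifi209 (0.11) were past the level on both arrays, and the dim Ifi202b differed by 0.059. Probes for such families can read close relatives.

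The kinase genes Tbk1 and Ikbke were slightly higher, and IRF7, a factor they activate, had lower transcript. Tbk1, the kinase shared by the MAVS and STING routes, was at 717 units in Runx2-deficient pDCs and 610 in wild-type pDCs, a log2 difference of 0.23. Ikbke, its inducible relative IKK-epsilon, was at 284 units on the Runx2-deficient and 261 units on the wild-type array, a log2 difference of 0.12. Irf7, the interferon regulatory factor that pDCs hold at high level, was at 1183 units on the Runx2-deficient and 1898 on the wild-type array, a log2 difference of -0.68, while Irf3 differed by 0.12.

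The scaffolds of the kinases did not differ past 1.5-fold. Tank, Azi2 and Tbkbp1, which each hold TBK1 in a separate complex, differed by 0.11, -0.017 and -0.27. Of the 20 measured genes of the kinase module, 0 were at least 1.5-fold higher and 2 were lower, Irf7 and Calcoco1, a selective autophagy receptor gene at -0.71. The module's median was -0.076, with 6 genes above 0, Tbk1 and Ikbke among them. Past the brightness level were 19 of the 20, both lower genes among them. Over the named genes past that level the median was -0.014, 47.8% were above 0, 3.02% were higher and 3.86% lower. When each array was centred on its median, 10 genes of the module were above 0 and its median was 0.00031. The median of all named genes was 0.043 in that setting. Traf3 was not analysed here.

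The RIG-I-like receptor list lay within 1.5-fold, as did 93.1% of all named genes past the brightness level. Of 34 measured genes, 3 of them members, 21 were above 0 and 0 were at least 1.5-fold apart in either direction, with a median of 0.13. Past the brightness level were 33 of the 34. Without the members, 19 of 31 were above 0, with a median of 0.13. Trim25, a ubiquitin ligase that activates RIG-I, differed by 0.34. When each array was centred on its median, 3 genes of this list, Ddx58 among them, passed 1.5-fold as higher, and after a correction for the trend with intensity 1 did, Ddx58.

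Other RNA sensors and effectors held 2 higher genes of 15 measured and 0 lower, with a median of 0.21. Both higher genes were among the list's 10 genes past the brightness level. Over all named genes past that level, 3.02% were higher and 3.86% lower, with a median of -0.014. Ifit2, which inhibits translation of viral RNA, was at 450 units in Runx2-deficient pDCs and 205 in wild-type pDCs, 2.20-fold higher. Ifit1, which binds RNA that lacks a complete cap, was at 288 units in Runx2-deficient and 183 units in wild-type pDCs, 1.58-fold higher. Its wild-type value lay below the brightness level of that array. Ifit1 dropped below the threshold when 50 units were added to both arrays, so that 1 of the 15 was counted there.

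Zbp1 is also an interferon-induced gene, and its difference can be set beside those of the wider interferon-stimulated list. That list holds none of the 8 members, and 6 of its 35 measured genes passed 1.5-fold as higher and 2 as lower, with a median of 0.090. All 8 of these were among its 31 genes past the brightness level, a level at which 3.02% of all named genes were higher and 3.86% lower. Ifit1 and Cxcl10, both among the higher genes, were at 7.52 and 7.54 on the wild-type array, below its level of 7.61. They were therefore past the level only through the array where they were high. The highest were Ifit2 (log2 1.14), the GTPase gene Iigp1 (1.09) and the antiviral GTPase gene Mx2 (0.92), and the lower ones were Lgals3bp (-1.01) and Irf7. Of the 167 genes in all lists outside the 8 members, the 3 with a difference nearest to that of Zbp1 were Casp4, Mx2 and Nlrc4, by the distance between log2 differences on these 2 arrays. Ifih1 and Dhx58, which interferon also induces, were at 0.21.

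Endosomal sensing genes, the main route of pDCs, had a median below 0. It was nearly 0 (-4.0e-05) when each array was centred on its median. Centring also moved the median of all named genes, from -0.033 to 0.043, so the list median was below it in both settings. Of 20 measured genes, 0 were at least 1.5-fold higher and 1 was lower, Irf7, and the median was -0.076, or -0.19 over the 16 past the brightness level. Over all named genes past that level, 3.02% were higher and 3.86% lower, with a median of -0.014. The cytosolic members had a median of 0.21 on the same arrays. With 1 array per genotype the gap between these medians has no test.

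**Figure D4:**
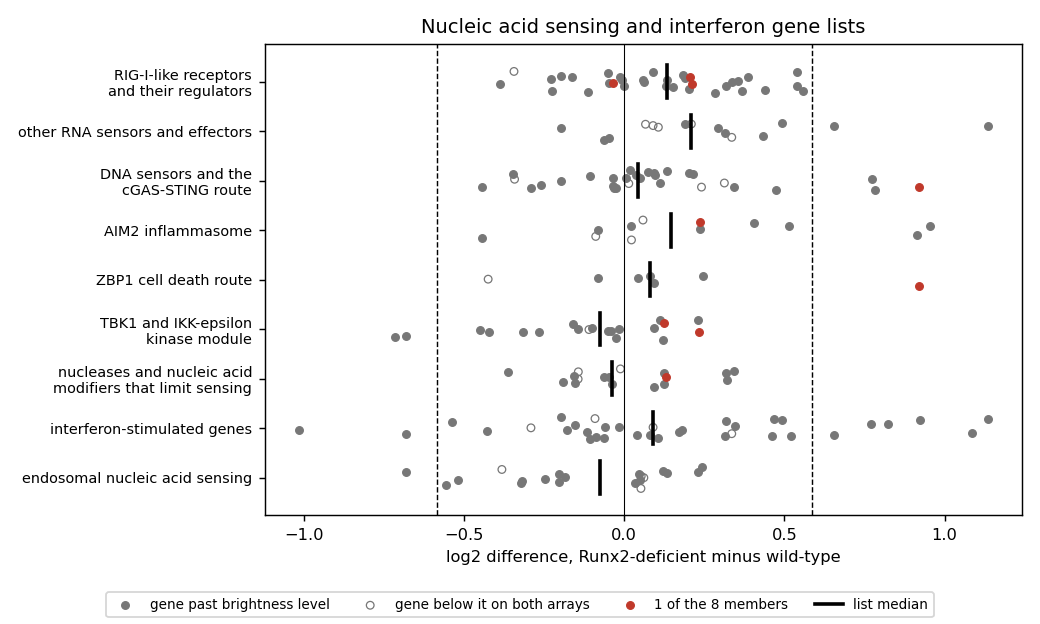
Log2 difference, Runx2-deficient minus wild-type (x axis), of each measured gene in 9 lists (y axis), with members in red, other genes past the brightness level in grey, genes below it on both arrays as open circles, list medians as black bars and dashed lines at 1.5-fold. Vertical scatter within a list carries no value. The kinase module and the endosomal list have medians of -0.076, and the other RNA sensors and effectors 0.21.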

How the data were processed

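The deposited table holds 1 linear intensity per probe set and array, made by the authors with RMA per the submitters' processing notes; RMA usually gives log2 values, and no source used here gives its software, version or settings. Intensities ran from 15.3 to 20364. Of 35556 probe sets, 21789 had exactly 1 symbol in the platform annotation used, 1621 had several and 12146 had none, and 21698 of the first matched RefSeq by gene identifier. List names were matched by symbol or by an unambiguous RefSeq synonym. For the 999 genes with several probe sets the brightest was used. Log2 differences, counts past 1.5-fold and medians were computed with Python 3.11.15, numpy 2.4.6, pandas 2.3.3 and statsmodels 0.14.6, and plots with matplotlib 3.10.9. The script was tested on simulated data with planted differences. The number of arrays, 1 per genotype, limits the precision, and no test was possible.

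The members and the 9 lists were chosen with earlier results of these data known. Named genes are the 8 members, direct partners of them whatever their value, up to 3 genes per list and direction past 1.5-fold and past the brightness level, and markers. Casp8, Fadd, Pld3, Dnase1l3, Xrcc5, Ifi203, Ifi209, Ifi202b and the 3 genes with ISRE letters shown beside Ifih1 were picked after their values were seen. The split of all genes by ISRE letters and its repeat over genes bright on both arrays were also chosen after values were seen. Alternatives were median centring, quantile normalisation, a lowess correction of the difference (span 0.3), an offset of 50, averaging of probe sets per gene, a lower and a higher (2-fold) threshold, no brightness filter and leaving out the most extreme member.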

Additional observations from a re-analysis of the deposited data

How the results depend on the processing

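With 1 array per genotype no replicate could be left out. No paired analysis was possible because each group has 1 array and no result comes from a test. Zbp1 was the 1 member at least 1.5-fold higher under each scaling and the offset, and at the lower threshold tried. At 2-fold the count was 0, and 0 members were lower under any setting. Averaging of probe sets could not change a member, because each had 1 probe set. The median of the members lay between 0.17 (quantile normalisation) and 0.28 (median centring), and was 0.21 without Zbp1. Mavs was above 0 in 1 of 6 settings, median centring (0.042), which shifts each difference by the gap between the array medians. The 6 settings include the main one and the averaging of probe sets. The other 7 members were above 0 in all 6. Without the brightness filter the share of named genes at least 1.5-fold higher was 1.73% and lower 2.22%, because the dimmer genes were then counted too. Of 202 alternative values of single genes and lists 196 stayed within 0.1 on the log2 scale, or within 1.5 times for a count, and 6 did not, among them Zbp1 at 0.82 with an offset of 50 units and the lower genes of the endosomal list, 2 under quantile normalisation. The cause was not tested. Part of the 196 was fixed in advance. The gap between the array medians was -0.076, smaller in size than 0.1, so median centring could not move a log2 value past that limit. Averaging could not move genes with 1 probe set. Mavs, which changed sign under median centring, is counted among the 196. Among the counts within 1.5 times, the higher genes of the AIM2 inflammasome list were 3 after median centring and after the lowess correction, and those of the interferon-stimulated list 5 to 7. The share of genes with ISRE letters that were at least 1.5-fold higher stayed between 5.23% and 8.82%, against 2.02% to 3.72% without the letters, and the share that were at least 1.5-fold lower was 2.61% with the letters under quantile normalisation.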

Other observations

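The 22 genes with ISRE letters that were at least 1.5-fold higher in the Runx2-deficient sample are mostly outside the lists: 2 of them are in the interferon-stimulated list and 3 in any list. The highest was Ifi213, a further gene of the family of Aim2, with a difference of 1.62. It was at a log2 intensity of 8.45 in the Runx2-deficient and 6.83 in the wild-type sample. Its wild-type value is below the brightness level of that array, 7.61, so it was included only through the array where it was high. Ifi203 and Ifi209 of that family, past the level on both arrays, differed by -0.036 and 0.11. Slfn5, an interferon-inducible gene of the Schlafen family, was at 10.24 in the Runx2-deficient and 9.18 in the wild-type sample, and Flt3l, which encodes the growth factor for dendritic cell development, at 9.46 in Runx2-deficient and 8.59 in wild-type pDCs. Rpl5, a ribosomal protein gene, and Dpm1, an enzyme of glycosylation, also carry the letters and differed by 0.61 and 0.70. These genes were picked after their values were seen.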
